A study of Mus musculus with 6 samples.

Results

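The mouse miRNAs numbered miR-6896 to miR-7094 form a block of late-numbered entries, many of which are thought to be mirtrons. Their mature 3p arms were described here across 6 small RNA libraries of embryonic brain. They were chosen by number and arm alone, with any letter after the number, and no measured value was used. The rule found 201 of the 1915 mature miRNAs listed in each library (10.5%). At least 1 read was counted in some library for 86 of the 201 (42.8%), and 115 were listed at 0 in all 6.

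The libraries were made from whole brain RNA of wild-type C57BL/6 mouse embryos at E15.5, after the gonads have taken their male or female form, and the study compared the sexes. There were 3 female and 3 male libraries, and sex was the only labelled difference between the groups. Each library held the RNA of a few embryos pooled, so the pools, not the embryos, were the replicates. No transgene or treatment was used.

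Most animal miRNAs are cut out of long primary transcripts by the nuclease Drosha and then trimmed to the mature form by Dicer. A mirtron skips the Drosha step. It is a short intron that is spliced out, opened from its lariat by the debranching enzyme and folded into a hairpin that Dicer can cut directly, so its 3p arm stops at the end of the intron, where introns close with AG. A tailed mirtron has a hairpin at one end of a longer intron, and the rest of the intron is trimmed away. As with other miRNAs, bases 2 to 8 of the mature strand, the seed, are the part that pairs with targets.

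A mature sequence was found in RefSeq (GRCm38.p6 annotation) for 177 of the 201 members (88.1%). The sequences below are those of the members with the most reads or with a pattern described later, with the seed in capitals, and with a closing AG also in capitals where the sequence ends in one. The first group came from hairpins that fill their whole intron, to within 5 bases at each end.
miR-6944-3p: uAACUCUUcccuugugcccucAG
miR-6958-3p: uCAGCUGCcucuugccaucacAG
miR-7018-3p: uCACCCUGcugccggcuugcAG
miR-7082-3p: gCCCCCCUugcugucugucucc
The next came from the last part of a longer intron, the place of a tailed mirtron.
miR-7019-3p: uCACCUUGgccgccucucugcAG
miR-7081-3p: uUCCCCUGguauccuccucaca
miR-6907-3p: aACGUGCGuuucuuuuguguccu
miR-6911-3p: uCAAUCACacucuguccacAG
miR-6962-3p: uAUCUGCCcuucccuguccuau
miR-6940-3p: uUACCUUCcgugcuugcccgcAG
miR-6941-3p: cUAACUCGgcugcucccaaAG
miR-7077-3p: cCUUCCAUggcuccuggcAG
miR-7079-3p: uGACUUCUguucucuuuccAG
Another pair came from the first part of an intron, with intron bases left over behind the hairpin, and neither ended in AG.
miR-6977-3p: aAGGCGUUgccugacccugacc
miR-6936-3p: cGGCGCGCgcggucgcucacc
miR-6948-3p has a sequence, but its hairpin had no exact match in mm9, the build of the study.
miR-6948-3p: uGUCCUUCcugucugaccaca
No sequence is shown for miR-6970-3p or miR-6979-3p.

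The members were then placed in the genome. Entries annotated from introns would have such positions by that choice, so the values describe the block and do not test the label mirtron. Of the 177 hairpins, 171 had a single exact match in mm9. The mature 3p arm lay within an intron of a GENCODE gene, on the sense strand, in 170 of these (99.4%). Of the other 3p arms placed in the same way, 228 of 468 (48.7%) did so. The shortest such intron was taken, and the whole hairpin was not required to lie in it. The 3p arm ended exactly on the last base of the intron in 131 of 171 (76.6%) and within 5 bases of it in 160 (93.6%), against 19 (4.06%) and 29 (6.20%) of the other 3p arms. The mature sequence closed with AG in 138 of 177 members (78.0%), against 56 of 505 (11.1%) of the others. These other 3p arms were those with a sequence, leaving out a chromosome that was not searched. No member with a sequence lay on that chromosome. The same set served for the base composition below.

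Position at the intron's end was therefore shared by most members, but a short intron was not. The median intron was 480 bases long, from 43 to 36267 bases, and 54 of 171 members (31.6%) lay in introns of at most 200 bases. For the other intronic 3p arms the median was 4772 bases, and 22 of the 468 placed arms (4.70%) lay in introns that short. In the members 10 hairpins filled the whole intron, 148 formed the last part of a longer intron and 4 the first part. In the remaining 8 neither hairpin end came within 5 bases of an intron end, among them miR-6910-3p in the intron of 43 bases. The introns of the last-part class had a median of 572 bases, but the shortest, at 77 bases, were as short as those of the whole-intron class, at 67 to 96 bases. By position of the annotated hairpin, most members had the place of the 3′ hairpin of a tailed mirtron. Fewer had that of an intron that is a hairpin from end to end.

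**Figure D1:**
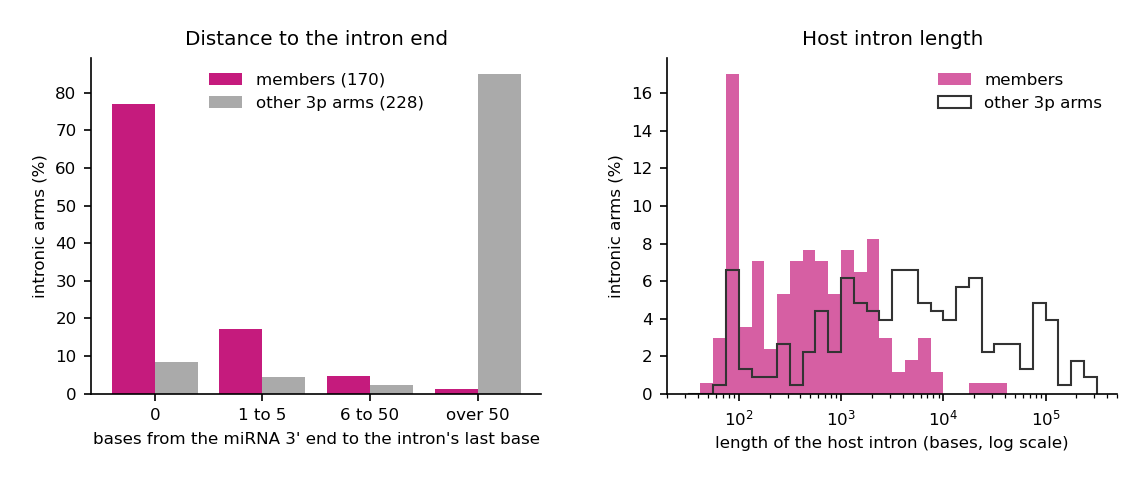
The left panel plots the share of intronic arms, in percent, by the distance in bases from the arm's end to the intron's last base, for 170 members and 228 other 3p arms, and the right panel the share by host intron length in bases on a log axis. Most members stand at distance 0, whereas most other 3p arms lie over 50 bases away and in longer introns.

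The mature sequences had further features in common that the numbering did not use. Pyrimidines made up a median of 72.2% of the bases in the members and 54.5% in the other 3p arms, and the median GC content was 56.5% against 50%. A U stood first in 54.2% of the members and in 37.4% of the others. The median length was 22 bases in both. Introns in general carry a pyrimidine-rich stretch just before their closing AG.

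Seeds were almost all different. The 177 sequences held 169 distinct seeds, and only 7 of these occurred in more than 1 member, which joined 15 members. The largest such group held miR-7018-3p, miR-7023-3p and miR-7068-3p, which share the seed CACCCUG and differ beyond it, as printed here for the second and the third of them.
miR-7023-3p: uCACCCUGucugcgccccucAG
miR-7068-3p: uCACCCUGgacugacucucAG
Of this group, miR-7018-3p had reads in 5 libraries, miR-7068-3p had 27 reads in female 3 and 32 in male 2, and miR-7023-3p had 22 reads in male 2 and none elsewhere. Outside the block, 13 members shared a seed with another listed miRNA. Among these, miR-6932-3p and miR-7039-3p had the seed CUGUUCU of miR-26a-2-3p and miR-26b-3p, the passenger strands of the miR-26 family. miR-6932-3p had 26 reads, all in female 3, and miR-7039-3p had none.

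The libraries held 14802675 to 59362011 reads on miRNAs. Levels are given as CPM, reads scaled to a common total in each library,, and a count of 0 allows up to 3 reads, which is 0.203 CPM in the shallowest library, female 1, and 0.0505 CPM in the deepest, female 2. These limits cover counting error only, because reads without molecular identifiers are not independent molecules. Female 2 stood apart in having the most reads, 30.3% of all, and the fewest miRNAs detected, 660 of 1915, against 790 to 915 in the other libraries. The samples were labelled as brain, and the neural markers miR-9, miR-124, miR-128 and miR-153 together took 226074 to 267169 CPM in females and 180300 to 208784 CPM in males. Sums of other tissue markers did not overlap between the sexes either, with 392 to 1191 CPM of skeletal muscle miRNAs in females and 5526 to 6154 CPM in males. The epithelial list ran from 429 to 1133 CPM in females and from 7990 to 8284 CPM in males. The red blood cell list ran from 1257 to 2693 and from 3162 to 3915 CPM, and the hindbrain and spinal cord list from 8613 to 12290 and from 1659 to 2055 CPM. The red blood cell sums were nearly all miR-486a-5p and miR-486b-5p, whose counts were almost equal (79594 and 79435 reads in female 2). Within that list miR-451a overlapped between the sexes, and miR-144-3p had the higher mean in females, 5.28 against 2.88 CPM. In the other lists miR-128-3p, miR-141-3p, miR-196a-5p and miR-196b-5p overlapped as well. All neural, muscle and red blood cell markers, 5 of 6 epithelial ones and 2 of 4 hindbrain ones were detected in every library, and their part in the results on sex was not tested.

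Detection of the members was sparse in each library. Reads were counted for 28, 19 and 41 of the 201 in female 1, 2 and 3, and for 29, 43 and 35 in male 1, 2 and 3, which is 9.45% to 21.4% of them. The deepest library thus had the fewest members detected, and the male libraries lay within or just above the female range. The mean was 29.3 ± 11.1 in females and 35.7 ± 7.02 in males (SD, n = 3 each), with a p of 0.4 in a two-sided exact permutation test whose smallest possible p is 0.1. Brought down to the smallest library total by calculation, the expected numbers were 28, 18, 40.7, 28.8, 41.0 and 33.6 in the same order. The ranking of the libraries stayed the same in this calculation. It treats reads as independent draws, which they are not, so the part of depth in the ranking was not tested.

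In every library the other 3p arms were detected more often. Of the 600 mature 3p arms outside the block, 50.8% were detected in female 2 and 57.8% to 63.2% in the other 5 libraries. The share of members detected was lower by 41.4 to 46.7 percentage points within each library, in 6 of 6, with an exact sign-change permutation p of 0.03125, the smallest that 6 pairs allow. When only the 94 other 3p arms with numbers of at least 6000 were taken for comparison, their share was 3.19% to 21.3% and the members stood above it by a mean of 3.23 points (exact p = 0.09375). The members were thus detected far less often than 3p arms in general, and a difference from other late-numbered 3p arms did not pass the test.

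**Figure D2:**
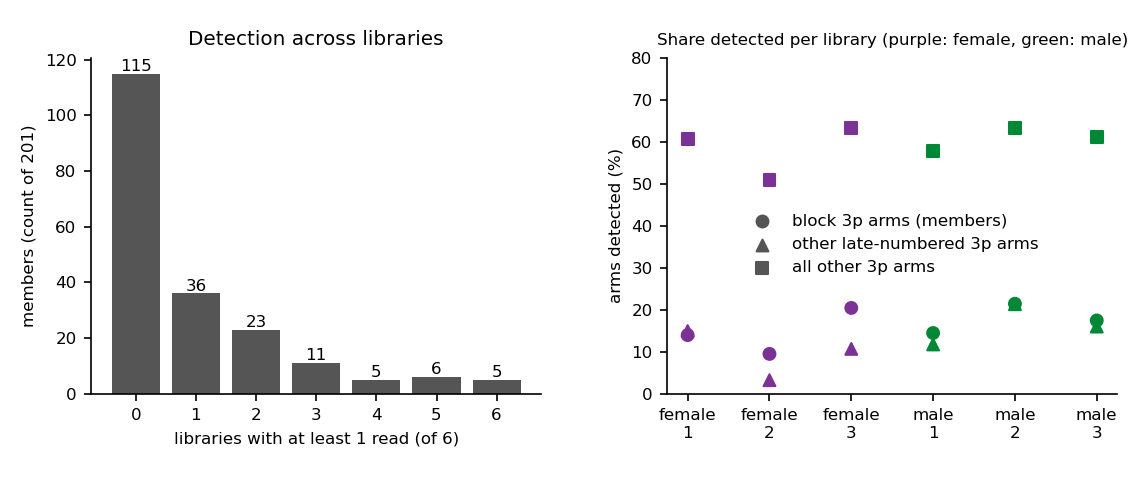
The left panel counts the members by the number of libraries, from 0 to 6, in which at least 1 read was counted, and the right panel gives the share detected in percent in each library for the members, the other 3p arms and the other late-numbered 3p arms. Zero is the tallest bar with 115 members, and in each library the members lie at 9.45% to 21.4%, well under the other 3p arms at 50.8% to 63.2%.

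The libraries did not detect one fixed set. Of the 86 members with reads, 36 were seen in a single library, 23 in 2, 11 in 3, 5 in 4, 6 in 5 and 5 in all 6. Those in a single library numbered 6, 1 and 9 in female 1, 2 and 3 and 3, 8 and 9 in male 1, 2 and 3. By sex, 17 had reads in female libraries only, 28 in male libraries only and 41 in both. The same counts were not taken over all miRNAs, and female 2 detected the fewest miRNAs, so no lean of the block to a sex can be read from them. Detection in all 6 libraries reached 2.49% of members, whereas 274 of the 600 other 3p arms (45.7%) were seen in all.

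**Figure D3:**
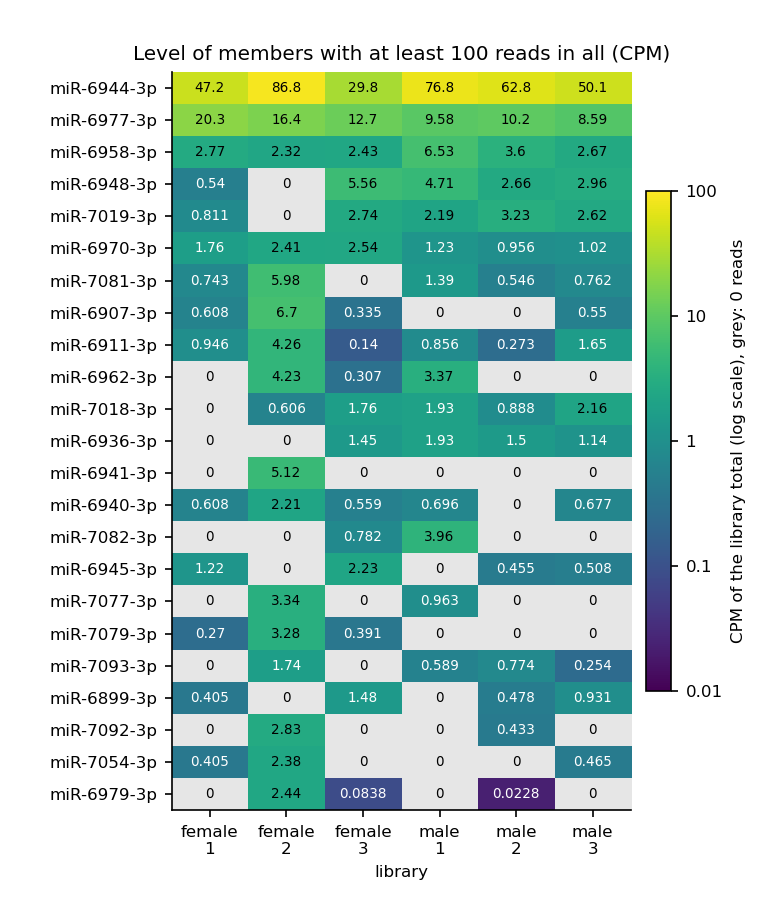
Each row is 1 of the 23 members with at least 100 reads summed, ordered by mean CPM, and each column a library, with CPM of the library total printed in each cell and shaded on a log scale, and grey cells at 0 reads. miR-6944-3p, miR-6977-3p and miR-6958-3p are filled in all 6 libraries, and below them grey cells become common.

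Summed over the members, reads were few and uneven between members. They came to 22431 of all reads, 0.0114%, and to 95.8, 153 and 81.7 CPM in female 1, 2 and 3 and 134, 101 and 88.1 CPM in male 1, 2 and 3. The sum was highest in female 2, with a 95% Wilson interval of 149.9 to 156.2 CPM, and lowest in female 3, with 78.8 to 84.7 CPM, so the male values fell within the female range. The sexes had means of 110.2 ± 37.8 and 107.6 ± 23.8 CPM (SD, n = 3 each, exact permutation p = 0.9). miR-6944-3p alone made up 54.8% of the members' reads, and miR-6977-3p brought the share to 66.2%. Without miR-6944-3p the sum was 55.6 ± 9.43 CPM in females and 44.4 ± 11.2 CPM in males (exact permutation p = 0.3). In whole-brain RNA, fewer cells of a type and less RNA per cell cannot be told apart.

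Hairpins that fill their intron were few, and they carried most of the level through 1 member, miR-6944-3p. Their 10 members held 59.3% of the members' summed mean CPM, and 5 of the 10 were detected. Of the 64.5 CPM of this class, 58.9 CPM came from miR-6944-3p, and the next member, miR-6958-3p, was at 3.39 CPM. Without miR-6944-3p the class fell below the last-part class, which held 22.1 CPM. The 148 members in the last part of a longer intron held 20.3%, with 61 detected (41.2%), and the 4 in the first part of an intron held 12.8%, mainly miR-6977-3p. The 31 members that were not placed in an intron, miR-6948-3p and miR-6970-3p among them, held 6.36%. The placed members with reads lay in introns of a median of 381.5 bases, and those without in introns of 589.5 bases, with 37.8% and 26.8% in introns of at most 200 bases. A closing AG was found in 70.5% of the detected and 83.8% of the undetected members.

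miR-6944-3p had the highest level of the block, and its hairpin is exactly the 96-base intron of Dbn1 at chr13:55579042-55579137 on the minus strand of mm9. Dbn1 encodes drebrin, an actin-binding protein of neurons found in dendritic spines. The counts were 699, 5150 and 1068 reads in female 1, 2 and 3 and 1434, 2756 and 1183 reads in male 1, 2 and 3, or 47.2, 86.8, 29.8, 76.8, 62.8 and 50.1 CPM in that order. Female 2 was highest and female 3 lowest, so all 3 males lay within the female range. The mean over 6 libraries, 58.9 CPM, placed it at rank 285 of all 1915 miRNAs. The log2 fold change, male over female, was 0.04 ± 0.35 (SE), and edgeR's quasi-likelihood test gave an adjusted p of 0.975 (Benjamini-Hochberg, 1120 miRNAs tested). Without female 2 it was 0.64 (adjusted p = 0.0876).

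miR-6977-3p was second. Its hairpin starts with the first base of a 79-base intron of Ptprs at chr17:56558269-56558332, minus strand, and the arm ends 19 bases before the intron does. Ptprs encodes a receptor tyrosine phosphatase that acts in axon growth. The levels were 20.3, 16.4 and 12.7 CPM in female 1, 2 and 3 and 9.58, 10.2 and 8.59 CPM in male 1, 2 and 3, from 301, 972, 454, 179, 447 and 203 reads. All 3 females were above all 3 males, at 16.5 ± 3.83 against 9.45 ± 0.802 CPM (SD, n = 3). The log2 fold change was -0.92 ± 0.54 (SE) with an adjusted p of 0.385 in edgeR, which did not pass the threshold of 0.05.

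miR-6958-3p and miR-6970-3p also reached 10 reads in each library. miR-6958-3p is the 3p arm of a 73-base intron of Fam116b, at chr15:89015895-89015967 on the minus strand, and it was counted at 41, 138 and 87 reads in the females and 122, 158 and 63 reads in the males. Its mean was 2.51 ± 0.233 CPM in females and 4.26 ± 2.02 CPM in males (SD, n = 3), and male 1 was the highest library. miR-6970-3p had 26, 143 and 91 reads in the females and 23, 42 and 24 reads in the males, and its CPM was higher in every female than in any male, at 2.24 ± 0.420 against 1.07 ± 0.145 CPM (SD, n = 3). Neither passed edgeR's test, with adjusted p of 0.846 and 0.778.

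A second pair was seen in every library but female 2, the deepest. miR-6948-3p had 8, 0 and 199 reads in the females and 88, 117 and 70 in the males. miR-7019-3p, from the end of a 1173-base intron of Pink1, the mitochondrial kinase gene, at chr4:137872047-137872115, had 12, 0 and 98 reads in the females and 41, 142 and 62 in the males. Part of that position is also an exon of another Pink1 transcript. In both the female libraries spanned or overlapped the male levels, with adjusted p of 0.874 and 0.803 in edgeR.

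miR-7018-3p and miR-6936-3p were also seen in all 3 males, with 0 reads in female 1. miR-7018-3p fills an 85-base intron of Hspg2, the gene of the basement membrane protein perlecan, at chr4:137094201-137094285, and had 0, 36 and 63 reads in the females and 36, 39 and 51 in the males. miR-6936-3p, from a 66-base intron of the sirtuin gene Sirt7, had 0, 0 and 52 reads in the females and 36, 66 and 27 in the males. Female 3 lay within the male range in both, so the sexes overlapped. Their adjusted p in edgeR was 0.870 and 0.803.

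Other members had most of their reads in female 2. Of the 23 members with at least 100 reads over all libraries, 12 had over 50% of their reads there, 2 in female 3 and 1 in male 1. The filter favours such members, since reads in female 2 alone could pass it, so this count describes the 23 only. The share over all miRNAs under the same rule was not computed. This library held 40.5% of the members' reads and 30.3% of all reads. Among the members it detected the median count was 168, compared with 14 to 26 elsewhere, and 16 members reached 100 reads in it compared with 2 to 5 in each of the others. Over all miRNAs the median detected count was also highest there, at 1846.5, and ranged from 218 to 352 in the rest.

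Several of these members were at or near 0 elsewhere. miR-6941-3p, from the end of an intron of the Notch ligand gene Jag2, had 304 reads in female 2 and none in any other library. miR-6907-3p, from an intron of the ribosomal RNA processing gene Rrp1, had 9, 398 and 12 reads in the females and 0, 0 and 13 in the males. miR-6979-3p had 0, 145 and 3 reads in the females and 0, 1 and 0 in the males. All reads of miR-6941-3p, 92.1% of those of miR-6907-3p and 97.3% of those of miR-6979-3p were in female 2, so their female means rest on that library.

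miR-7077-3p, with 198 reads in female 2 and 18 in male 1 and none elsewhere, had the same shape. miR-7081-3p lies at the end of a 1632-base intron of Dnmt1, which encodes the maintenance DNA methyltransferase, and had 11, 355 and 0 reads in the females and 26, 24 and 18 in the males. miR-6911-3p, in the RNA-binding protein gene Dazap1, was seen in all 6 libraries, with 14, 253 and 5 reads in the females and 16, 12 and 39 in the males. miR-6962-3p, in the activin receptor gene Acvr1b, had 0, 251 and 11 reads in the females and 63, 0 and 0 in the males, and miR-6940-3p had 9, 131 and 20 and then 13, 0 and 16. In all 5 the sexes overlapped, with female 2 and without it.

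miR-7082-3p had reads in 2 libraries, female 2 not among them. It comes from an 88-base intron of the RNA-binding protein gene Raver1 and had 28 reads in female 3 and 74 in male 1. Each sex had it in 1 library.

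**Figure D4:**
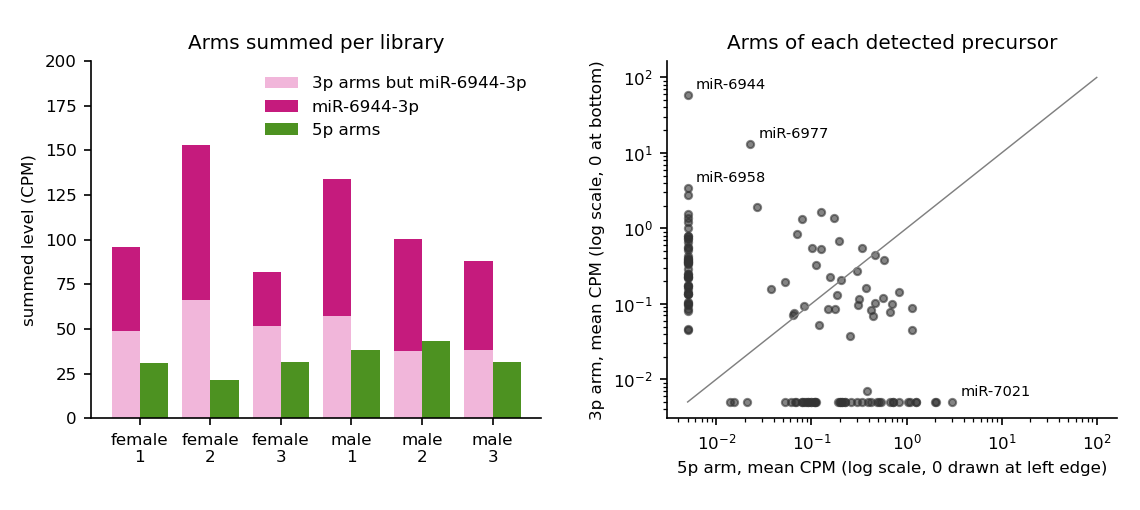
The left panel stacks the summed CPM of the 3p members in each library, with miR-6944-3p as the dark part, beside the summed CPM of the 5p arms, and in the right panel each point is a detected precursor placed by the mean CPM of its 5p and 3p arms on log axes, with 0 drawn at the edge and a line where the arms are equal. The 3p bar is taller in all 6 libraries, and the points lie along both edges, with miR-6944 and miR-6977 highest on the 3p axis and miR-7021 farthest on the 5p axis.

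The same precursors were then compared arm against arm. Both arms were listed for 200 precursors, and miR-7094-3p had no 5p partner. Reads came from the 3p arm only in 47 precursors, from the 5p arm only in 45, from both in 39 and from neither in 69. Neither arm prevailed by number, since the 3p arm had the higher mean CPM in 65 precursors and the 5p arm in 66.

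By summed level the 3p arms were higher in 6 of 6 libraries. The 5p sums were 31.0, 21.6 and 31.3 CPM in female 1, 2 and 3 and 38.3, 43.5 and 31.3 CPM in male 1, 2 and 3. The 3p sum was 2.31 to 7.08 times as large, by a mean of 76.0 CPM (exact sign-change permutation p = 0.03125, the smallest possible). This difference rested largely on 1 precursor. Without miR-6944 it was 17.1 CPM and turned to -5.65 CPM in male 2 (exact p = 0.0625), and the mean log2 ratio per precursor was 0.14 (exact p = 0.09375).

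The most abundant arms stood almost alone in their precursors. The 5p arms of miR-6944 and miR-6958 had 0 reads in all 6 libraries, and miR-6977-5p had 6 reads, all in male 2. The 3p arm was higher in all 6 libraries for these 3 and miR-6970, and the 5p arm was so for miR-7073 alone, with 39, 58 and 112 reads in the females and 42, 84 and 22 in the males. The highest 5p arm, miR-7021-5p, had 75, 0 and 187 reads in the females and 18, 208 and 53 in the males, and its 3p arm had none. Like miR-6948-3p and miR-7019-3p, miR-7021-5p was seen in every library but female 2.

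The 5p sums were 28 ± 5.5 CPM in females and 37.7 ± 6.10 CPM in males (SD, n = 3). Every male was above every female, but the lowest male, male 3 at 31.3152 CPM, barely exceeded the highest female, female 3 at 31.2826 CPM. That margin is too small to be read as a separation of the sexes. The exact permutation p was 0.1, the smallest possible, which does not pass a threshold of 0.05.

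Other mirtrons gave a scale for these levels. miR-877, miR-702 and miR-1224 are among the mouse mirtrons with a lower number. miR-877-5p had 452, 1264 and 916 reads in the females and 865, 2212 and 908 in the males, a mean of 35.4 CPM, which is below miR-6944-3p and above miR-6977-3p. Its level was 25.8 ± 4.62 CPM in females and 45.0 ± 6.07 CPM in males (SD, n = 3), with every male above every female, and its adjusted p in edgeR was 0.293. miR-877-3p had a mean of 4.30 CPM, miR-1224-5p of 3.09 CPM and miR-702-3p of 1.74 CPM, between the second and the sixth member, and miR-1224-3p had 0 reads in all libraries. Female 2 had no read of miR-702-5p or miR-1224-5p.

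Between the sexes, 83 members had the 10 reads over all libraries that the test required. None passed an adjusted p of 0.05 in edgeR's quasi-likelihood test, where 8.48% of all 1120 miRNAs tested did. At an unadjusted p under 0.05 there were 3 members (3.61%), against 18.4% of all miRNAs. DESeq2 called 0, where it called 11.8% of all miRNAs, with 3 at an unadjusted p under 0.05 (20.4% of all), but gave an adjusted p for only 2 of the 83, so its 0 says little. The precision was low, with a median standard error of the log2 fold change of 4.02 in the members and 1.39 in all miRNAs tested. At this depth small differences between the sexes were not detectable in most members.

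The directions were balanced. The log2 fold change was positive, male higher, in 39 of 83 members (47.0%) and in 49.1% of all miRNAs tested. Its median was -0.08 in the members and -0.02 in all. Taken from mean CPM, with 3 reads per library in place of a sex at 0, the median log2 ratio was -0.11 in the members and 0.08 in all.

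Libraries of the 2 sexes did not overlap in CPM for 3 of the 83 members, all higher in females (3.61%, against 8.57% of all miRNAs tested), and for 0 with males higher (against 15.4%). The 3 were miR-6977-3p, miR-6970-3p and miR-7079-3p. miR-7079-3p comes from the end of an intron of the ribosomal protein gene Rpl13, at chr8:125628875-125628943, where another transcript has an exon. It had 4, 195 and 14 reads in the females and 0, 0 and 0 in the males, so its female mean was at least 11.1-fold higher against 3 reads in each male library. That bound rests on female 2, which held 91.5% of its reads and was at 3.28 CPM. Female 1 and 3 were at 0.270 and 0.391 CPM, against 0.0683 to 0.161 CPM for 3 reads in the male libraries. Its log2 fold change was -8.54 ± 3.56 (SE), which is no bound because the males were at 0, with an unadjusted p of 0.0252 and an adjusted p of 0.172 in edgeR. It is the member listed in the study's table of sex-biased miRNAs, so its direction here is not independent evidence.

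The other members at an unadjusted p under 0.05 had their reads in 1 or 2 libraries. miR-6941-3p, all of whose reads were in female 2, had an unadjusted p of 0.0200 and an adjusted p of 0.153 in edgeR. miR-6915-3p, named after its values were seen, lies at the end of a 142-base intron of Ankrd52. It had no female read and 75, 5 and 0 reads in male 1, 2 and 3, with an unadjusted p of 0.0481 and an adjusted p of 0.263 in edgeR. For each, single libraries set the difference, since miR-6941-3p had no read in 2 of 3 females and miR-6915-3p was at 0 in male 3 as in all females.

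One setting called members. The study's methods name DESeq2 and RUVr but give no number of factors, so 1 factor of unwanted variation was assumed here. DESeq2 with this factor gave an adjusted p for 38 of the 83 and called 2 (2.41%, against 19.3% of all miRNAs). They were miR-7079-3p, lower in males (log2 fold change -6.40, adjusted p = 0.0357), and miR-6915-3p, higher in males (7.70, adjusted p = 0.0473). In edgeR with the same kind of factor neither passed, and 0 members were called against 16.9% of all miRNAs. Leaving out female 2 in edgeR also called 0, of 81 members, against 18.3% of all.

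**Figure D5:**
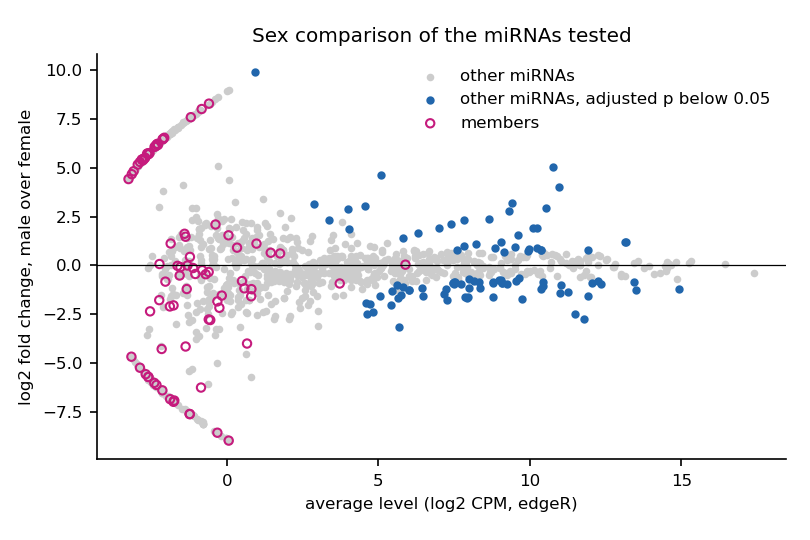
The log2 fold change between male and female libraries in edgeR is plotted against mean log2 CPM for the 83 members tested, over all 1120 miRNAs tested. The members lie at the low end of abundance and spread widely to both sides of 0, all of those past the threshold are other miRNAs, and the curved arms are miRNAs with reads in 1 sex only, where the fitted value is no bound.

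The ends of the number block gave no sharp edge. miR-6896-3p, miR-6897-3p and miR-7094-3p, just inside, were at 0 in all libraries, and miR-7093-3p had 0, 103 and 0 reads in the females and 11, 34 and 6 in the males. Just outside, miR-6769b-3p was at 0 throughout and miR-7115-3p had 12 reads in male 2 only. The 170 members placed in an intron came from 167 host genes, of which 3 held more than 1, so few of them shared a host gene. The other 31 members had no host assigned.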

How the data were processed

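Small RNA was sequenced from 6 whole-brain libraries, 3 per sex. The authors trimmed reads with cutadapt 1.15, mapped them with Bowtie 1.2.1 to mm9 and counted them with miRDeep2 against miRBase, and they deposited raw counts, whole numbers per mature miRNA, without normalization. The counts hold no read ends, which were not analysed here. The members to be named and the marker lists were chosen with earlier results of these data known, whereas the block itself was set by number and arm. No library was a copy of another.

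CPM were taken over the library total. miRNAs with at least 10 reads summed were tested with edgeR 4.0.16 in R 4.3.3 (TMM, quasi-likelihood test, Benjamini-Hochberg over 1120 miRNAs, threshold 0.05), and the standard error is the absolute log2 fold change over the root of F. The fit was tested on simulated data, with changes planted only in miRNAs of higher mean count. That test therefore does not cover members with few reads. Single values were compared by two-sided exact permutation tests in SciPy 1.17.1. Since labels do not give litters, p-values measure the spread between pools. RefSeq hairpins (GRCm38.p6) were matched exactly to mm9 and set against GENCODE vM1 introns, and no coordinates were converted.

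Named members were the 15 of highest mean CPM, any called, any in the study's table of sex-biased miRNAs, those reaching 10 reads in each library, and up to 5 with the largest share of reads in 1 library among those with at least 100 reads, with their 5p arms and the mirtrons miR-702, miR-877 and miR-1224. Alternatives were library size scaling, DESeq2 1.42.0, 1 factor of unwanted variation (RUVr, written out from edgeR residuals), other filters, detection at 3 or 10 reads, equal depth, a GC offset, a replicate block and each library left out.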

Additional observations from a re-analysis of the deposited data

How the results depend on the processing

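No member was called in edgeR under any alternative, nor with any library left out, and DESeq2 with 1 RUVr factor called 2. The difference in members detected, male minus female, stayed positive under all alternatives (1.17 to 12.2 with 1 library left out). The summed level, -2.63 CPM male minus female, ran from -16.9 to 18.8 CPM with 1 library left out and turned positive without female 2 (18.8), male 2 (0.862) or male 3 (7.12). The share of members minus that of other 3p arms ran from -43.7 to -42.6 points with 1 library left out, where 5 pairs cannot go below an exact p of 0.0625, and was 3.23 points against other late-numbered 3p arms. The excess of 3p over 5p arms ran from 65.0 to 81.2 CPM with 1 library left out, at the same exact p of 0.0625, and was 17.1 CPM without miR-6944 and 0.14 as a mean log2 ratio. The cause of these changes was not tested.

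Of 254 log2 fold changes of the 18 named members under alternatives, 233 kept their direction and side of the threshold and 20, in 6 members, changed sign. With RUVr in DESeq2 and then in edgeR, the values were 0.51 and 0.45 for miR-7081-3p (-1.58 in the reported fit), 0.18 and 0.13 for miR-6911-3p (-1.17), 0.90 and 0.82 for miR-6962-3p (-0.80) and 2.37 and 3.43 for miR-7077-3p (-2.16). miR-6944-3p was at -0.023 with 10 reads required in every library and -0.10 with the GC offset. With 1 library left out, miR-6944-3p ran from -0.27 to 0.64, miR-7081-3p from -2.16 to 1.19, miR-6911-3p from -1.93 to 0.70, miR-6962-3p from -8.85 to 2.58, miR-7077-3p from -8.42 to 5.97 and miR-7082-3p from -6.19 to 8.17. None of these 6 passed the threshold. The GC offset covered 84.9% of the miRNAs tested, and the others were set to the median.

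The replicate numbers gave no sign of pairing. After the mean of each sex was removed from log2 CPM, what was left correlated at -0.0468, 0.0206 and 0.0534 between same-numbered libraries. Between female and male libraries of different number it ran from -0.0914 to 0.0651. With 3 pools per sex these correlations cannot settle whether the numbers mark pairs. With the number as a replicate block, 0 members were called and miR-7081-3p was at 0.80 (0.52 with the GC offset and block), and the exact p was 0.75 for members detected and 1 for the summed level. A count of 0 allows up to 0.203 CPM in the shallowest library.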
